A study of Homo sapiens with 2 samples.

Results

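The 10 genes described here encode the A, B, D, E and G cyclins CCNA2, CCNB1, CCNB2, CCND1, CCND2, CCND3, CCNE1, CCNE2, CCNG1 and CCNG2. They were taken by gene symbol from the array annotation, and each was read by 1 probe set, so that 10 of 33297 probe sets and 10 of 18417 genes were used. The cells were H1299, an established line of human non-small cell lung carcinoma without functional p53. RNA of H1299 cells with p53 was set against RNA of H1299 cells of a negative control, on 1 Affymetrix array per group. The sources used here do not give how p53 was brought in, for how long, or what the negative control received. With 1 array per group there is no replicate and no test, and every difference describes these 2 arrays only.

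Cyclins are the regulatory subunits of cyclin-dependent kinases (CDKs). D cyclins join CDK4 or CDK6 and start the phosphorylation of the retinoblastoma protein in G1, E cyclins join CDK2 at the entry into S phase, cyclin A2 works with CDK2 and CDK1 through S and G2 phase, and B cyclins activate CDK1 for mitosis. The G cyclins differ from these: CCNG1 is a known target of p53 whose protein binds a phosphatase that acts on MDM2, and CCNG2 is linked to arrest and is a known target of FOXO factors. Much of the repression of cell cycle genes by p53 is known to run through p21, the product of CDKN1A, and through the DREAM complex of pocket proteins, E2F factors and the MuvB core.

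Values are log2 intensities, and a difference is log2 with p53 minus log2 in the negative control. A gene was kept where the higher array reached 7.38, the median of all probe sets, and was counted as higher or lower where the difference was at least 2-fold. Of the 10 cyclins, 9 were kept, 5 were at least 2-fold lower with p53, none was at least 2-fold higher and 5 were neither. Among the 11436 kept genes, 5.79% were at least 2-fold lower and 8.21% at least 2-fold higher. The cyclins and the lists below were chosen with earlier results of these data known, so their counts are no independent support. At 1.5-fold, 6 cyclins were lower and 1 was higher, against 15.5% lower and 14.4% higher among the kept genes. The median difference was -1.07 over all 10 cyclins and 0.00 over all 18417 genes. The spread of the differences among kept genes, a standard deviation of 0.43 taken from the median absolute deviation, is not a replicate error, since it holds every change with p53. Differences of CCND2, CCND3 and CCNG2 lay within that spread, and those of the other 7 lay outside it. The arrays average over all cells, so fewer cells in a phase of the cycle and less RNA per cell cannot be told apart.

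**Figure D1:**
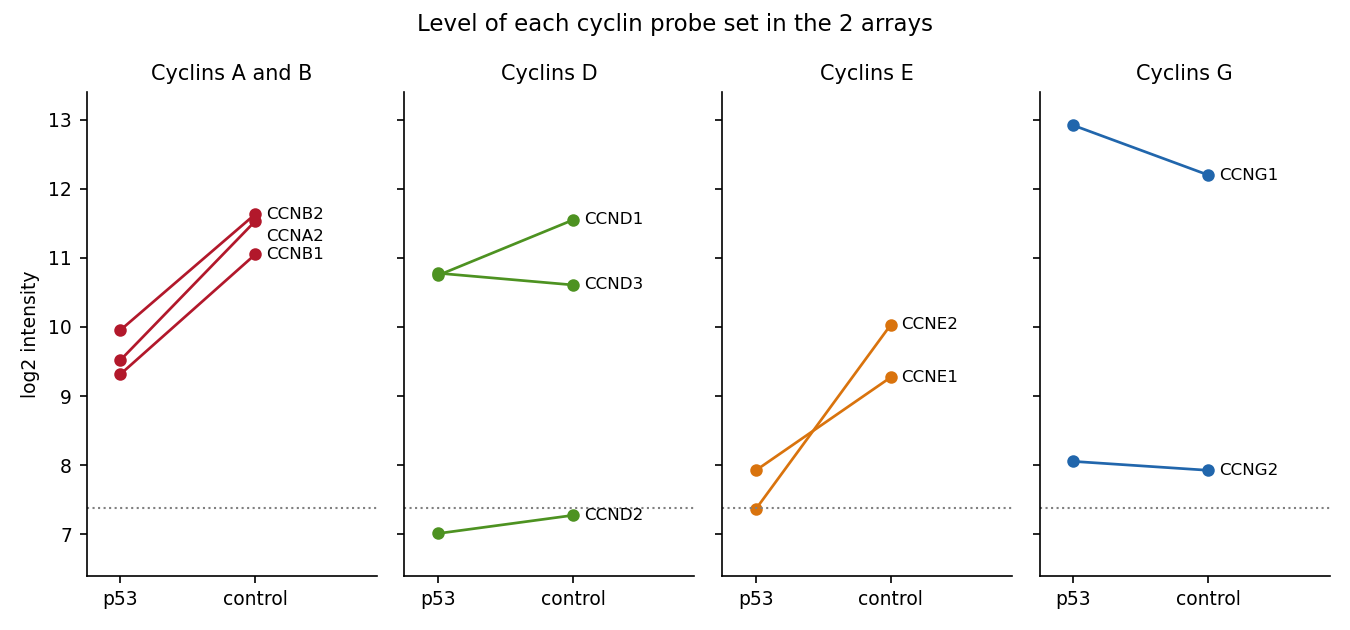
Log2 intensity of each cyclin in the p53 array and the negative control array (control), 1 point per array joined by a line, with 1 panel per cyclin class. The dotted line marks the filter level of 7.38. Lines of the A, B and E cyclins are lower at p53, from -1.35 for CCNE1 to -2.67 for CCNE2, and CCNG1 is higher at p53 by 0.72. Heights of different probe sets are not comparable.

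Cyclins A2, B1 and B2 were all lower with p53, by similar amounts. CCNA2, which encodes the cyclin of S and G2 phase, stood at 9.52 with p53 and 11.53 in the negative control, a 4.04-fold lower level. CCNB1, the main mitotic partner of CDK1, stood at 9.32 with p53 and 11.05 in the negative control, 3.33-fold lower. CCNB2, the B cyclin found at the Golgi, stood at 9.95 with p53 and 11.63 in the negative control, 3.20-fold lower. Their differences of -2.01, -1.74 and -1.68 spanned 0.33, and those of CCNB1 and CCNB2 were 0.06 apart. Ordered from the lowest difference, they were at ranks 82, 132 and 147 of the 11436 kept genes. All 3 were well above the filter level in both arrays.

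Because these 3 genes were lower together, the DNA just before their start sites is shown, with that of CCNG1, whose difference was above 0. These 4 genes were picked by their differences, so the stretches are not a test of lower against higher genes. CCNE1, which was also lower, is not printed. The sequences are from RefSeq on GRCh38.p14 and cover the 150 bases before the annotated start, 5′ to 3′ on the strand of the gene. CCNA2 lies on the minus strand at chr4:121823884-121824033. The stretches on the plus strand are CCNB1 at chr5:69167000-69167149, CCNB2 at chr15:59104996-59105145 and, from the first of 2 listed starts, CCNG1 at chr5:163437421-163437570. Capitals mark the CCAAT box, read as CCAAT on either strand (ATTGG as printed where it is on the opposite one), and the cell cycle genes homology region (CHR), read as TTTGAA or CTTGAA or else TTCGAA on either strand.
CCNA2: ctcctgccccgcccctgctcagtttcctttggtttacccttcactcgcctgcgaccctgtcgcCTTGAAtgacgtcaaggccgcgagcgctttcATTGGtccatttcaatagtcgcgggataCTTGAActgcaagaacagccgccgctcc
CCNB1: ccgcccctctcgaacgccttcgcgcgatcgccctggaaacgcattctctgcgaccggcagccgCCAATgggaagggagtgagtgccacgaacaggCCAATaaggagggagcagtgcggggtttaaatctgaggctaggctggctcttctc
CCNB2: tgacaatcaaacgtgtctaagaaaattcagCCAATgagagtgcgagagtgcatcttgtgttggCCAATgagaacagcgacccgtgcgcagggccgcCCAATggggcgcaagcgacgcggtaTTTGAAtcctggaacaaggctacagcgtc
CCNG1: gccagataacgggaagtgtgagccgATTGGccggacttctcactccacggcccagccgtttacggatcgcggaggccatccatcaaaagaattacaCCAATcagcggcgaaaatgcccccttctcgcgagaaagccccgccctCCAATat

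CCAAT boxes are the known binding site of the factor NF-Y, and CHR is the element that the MuvB core of the DREAM complex is known to bind. In the window from 250 bases before to 50 after the start, CCNA2 held 1 CCAAT box, on the opposite strand 56 bases before the start, with CHR letters 28 and 87 bases before it. CCNB1 held 2 CCAAT boxes, 55 and 87 bases before the start and 32 apart, and none of the CHR letters searched. Its printed stretch holds tttaaa, a spelling not searched as CHR, so CCNB1 cannot be said to lack the element. CCNB2 held 4 CCAAT boxes, of which those 54, 87 and 120 bases before the start were 33 bases apart, with TTTGAA 29 bases before the start. CCNG1 also held 4 CCAAT boxes, with steps of 78, 71 and 47 bases between them, and no CHR letters. No 2 of these matches overlapped. Over all 35116 windows of this length in the table, 34.6% held a CCAAT box, 24.9% held CHR letters, 9.65% held both and 10.8% held at least 2 CCAAT boxes, so single matches are common.

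A window was found for 7 of the 10 cyclins, in 10 windows, as CCNG1 has 2 listed starts and CCND3 has 3. CCNE1 at chr19:29811741-29812040, a gene also lower with p53, held no match to any motif searched. Among the 7 cyclins with a window, only CCNA2 and CCNB2 held CHR letters. So few windows cannot be told apart from the 24.9% of all windows. Of the 3 CCND3 windows, the first held no match and each of the others held 1 CCAAT box. The E-box CACGTG was found in CCNB1, 196 bases before the start, and in CCNG2, 30 bases before it, against 7.26% of all windows. No cyclin window held an E2F site, read as TTTCGCGC, TTTGGCGC, TTTCCCGC or TTTGCCGC (3.31% of all windows), the TATA box TATAAA (11.5%) or a p53 half-site (6.63%). No match says only that these letters are not in these windows.

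**Figure D2:**
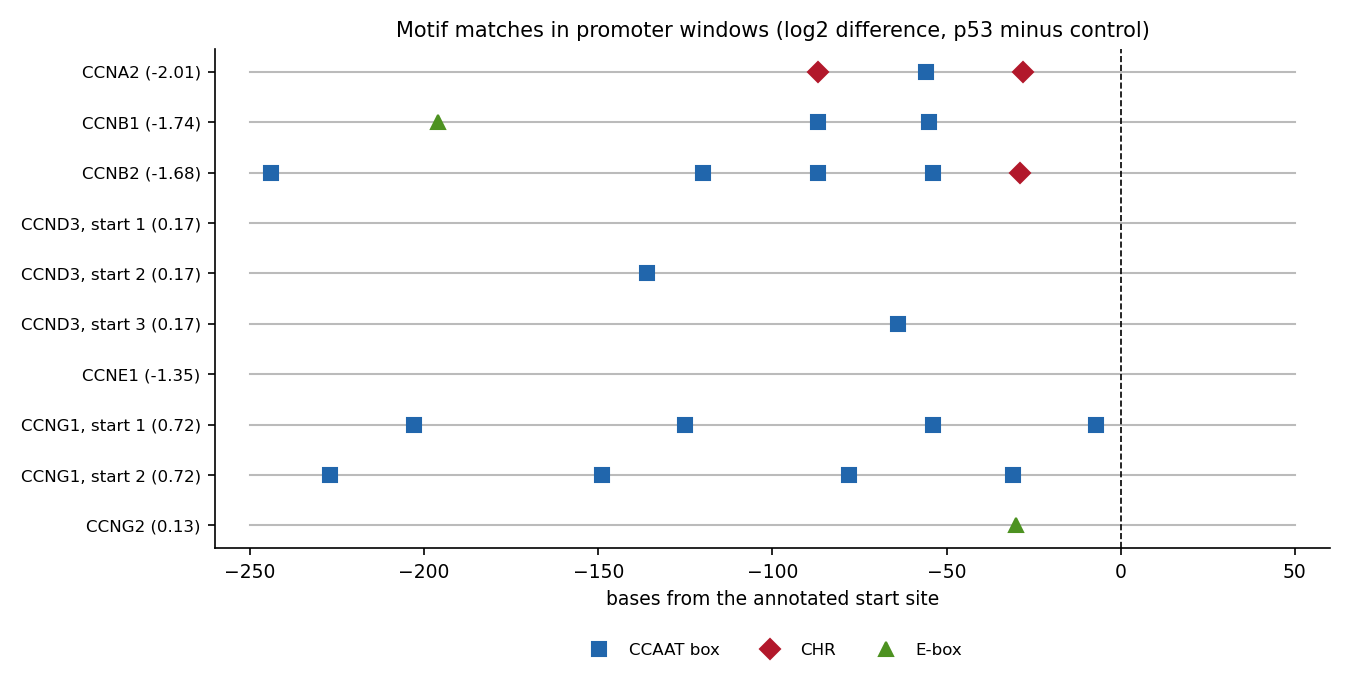
Positions of CCAAT boxes, CHR letters and E-boxes on either strand, in bases from the annotated start site (dashed line), in the 10 promoter windows of 7 cyclins, with the log2 difference (p53 minus negative control) in parentheses. CCNA2 and CCNB2 carry CHR letters 28 and 29 bases before the start. CCNB2 and CCNG1 carry 4 CCAAT boxes each, at differences of -1.68 and 0.72.

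The E cyclins were lower with p53, and unequally so. CCNE2 stood at 7.36 with p53 and 10.03 in the negative control, a 6.36-fold lower level and the largest difference of the 10 cyclins, at rank 9 from the lowest of all kept genes. With p53 it was just below the filter level of 7.38, so it was kept through the control array alone. CCNE1 stood at 7.92 with p53 and 9.27 in the negative control, 2.55-fold lower, at rank 283. The difference of CCNE2 minus that of CCNE1 was -1.32, although both genes encode activators of CDK2 at the start of S phase.

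No D cyclin passed 2-fold, and the 3 differences did not share a sign. CCND1, the D cyclin that growth factor signals are best known to induce, stood at 10.75 with p53 and 11.55 in the negative control, a 1.74-fold lower level (difference -0.80, rank 1042 from the lowest). CCND3 stood at 10.78 with p53 and 10.61 in the negative control, a difference of 0.17. The 2 differences were 0.97 apart. CCND2 stood at 7.01 with p53 and 7.27 in the negative control, a difference of -0.26, and was the only cyclin of the 10 below the filter level in both arrays.

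The G cyclins were not lower. CCNG1 stood at 12.92 with p53 and 12.20 in the negative control, a 1.65-fold higher level (difference 0.72, rank 1347 from the highest). CCNG2 stood at 8.05 with p53 and 7.92 in the negative control, a difference of 0.13. Differences lay below 0 in 7 of the 10 cyclins, and the median over all kept genes was -0.007. The 3 above 0 were both G cyclins and CCND3. The signs of CCND2, CCND3 and CCNG2 say little, as their differences lay within the spread of 0.43 among kept genes.

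**Figure D3:**
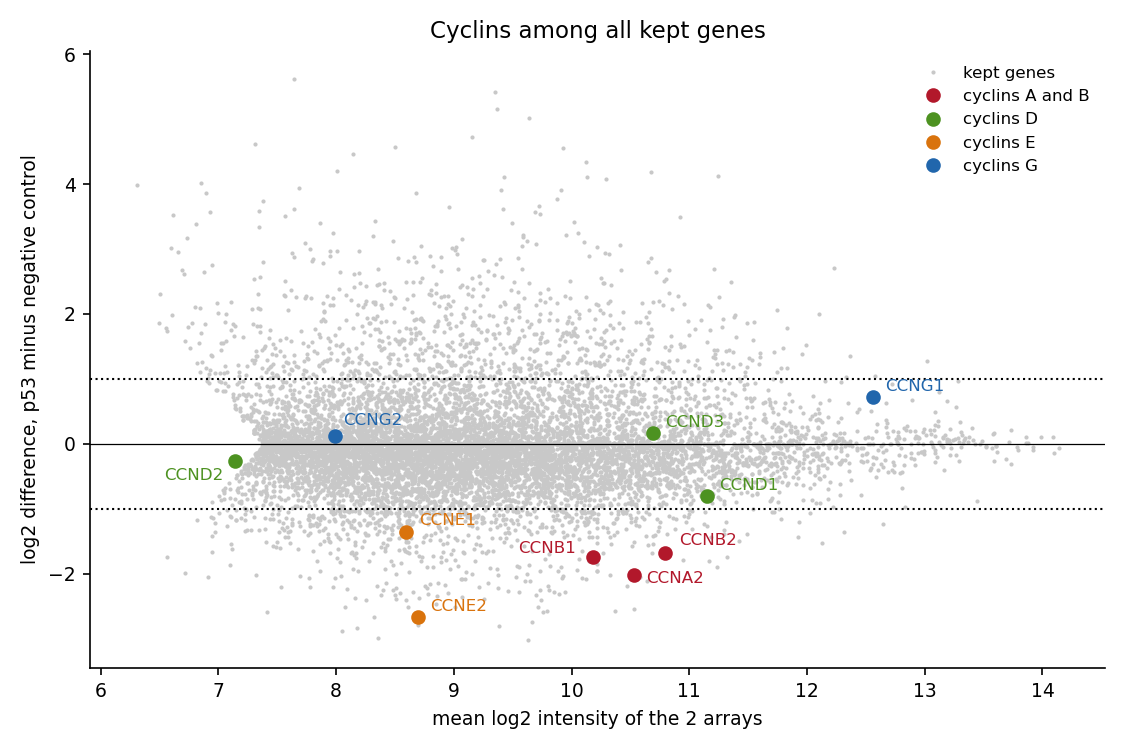
Log2 difference (p53 minus negative control) against mean log2 intensity for the 11436 kept genes (grey) and the 10 cyclins (coloured by class). Dotted lines mark 2-fold. The 3 A and B cyclins and both E cyclins lie below the lower line, between -1.35 and -2.67, and all D and G cyclins lie between the lines, from -0.80 to 0.72.

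Outside these 10, 21 further cyclin and cyclin-related genes were measured, and none was at least 2-fold lower. Among all kept genes, 5.79% were at least 2-fold lower and 8.21% higher. These lists are too short for their counts to be told apart from those shares. Of 11 listed with the cell cycle and DNA repair, 8 were kept and 1 was at least 2-fold higher. Their median difference was 0.00, with 5 equal in both arrays. The higher one was CCNA1, the second cyclin A, known mainly from the testis, at 12.11 with p53 and 9.24 in the negative control, 7.28-fold higher. Its difference of 2.86 lay 4.88 above that of its paralogue CCNA2. CCNF (-0.45), CCNJ (-0.32) and CCNDBP1 (-0.26) were the next in size. Of 10 cyclins of transcription and the membrane, all kept, 1 was at least 2-fold higher, with a median of -0.13. CCNK, the partner of the transcription kinases CDK12 and CDK13, stood at 12.36 with p53 and 11.20 in the negative control, 2.24-fold higher. CCNH (-0.73), of the CDK-activating kinase, CCNY (-0.46) and CCNT2 (-0.35) followed.

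All 7 CDKs and CKS subunits listed had differences below 0, partners of the lower cyclins and partners of the D cyclins among them. CDK1 had the largest of these differences. Of 7 CDKs and CKS subunits, 3 lay at least 2-fold below the negative control and none above it, and the list median was -0.98. Among all kept genes, 5.79% were at least 2-fold lower, but the list was chosen with earlier results of these data known. CDK1, the kinase that cyclins A2 and B activate, stood at 7.66 with p53 and 9.88 in the negative control, 4.65-fold lower. CDK2, the partner of cyclins E and A2, had a difference of -1.02, which was -0.87 with the intensity trend removed and -0.99 with an offset of 32, both short of 2-fold. CKS1B, a small subunit of CDK complexes, had differences of -1.87, -1.36 and -1.33 in its 3 probe sets, and CKS2 stood at -0.98. The partners of the D cyclins, named after their values were seen, were CDK4 (-0.86) and CDK6 (-0.66). None of the 3 subunits of the CDK-activating kinase passed 2-fold, at -0.73 for CCNH, -0.62 for CDK7 and 0.06 for MNAT1.

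Among 7 genes named as CDK inhibitors, 1 lay at least 2-fold above the negative control and 1 below it, at a list median of 0.00. Such counts in so short a list cannot be told apart from the 8.21% and 5.79% of all kept genes. CDKN1A was 11.2-fold higher, at 12.66 with p53 and 9.18 in the negative control. CDKN3, whose product is a phosphatase of CDKs, was 2.30-fold lower. CDKN2A (-0.39) and CDKN1B (0.31), the gene of p27, did not reach 2-fold.

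Genes tied to the destruction of the cyclins were listed in 2 groups. A list of 19 genes held the anaphase-promoting complex, the ligase of cyclins A and B, with its activators, enzymes and an inhibitor. Of these, 7 lay at least 2-fold below the negative control and none above it, against 5.79% of all kept genes lower. This list too was chosen with earlier results of these data known, so the count only describes it. The list median was -0.65. Subunits among the 7 were ANAPC1, ANAPC13 and CDC27, and the others were FBXO5, UBE2C, CDC20 and UBE2S. With the intensity trend removed, 4 were lower, as ANAPC1, ANAPC13 and UBE2S fell short of 2-fold. FBXO5 (-2.58), an inhibitor of this ligase, UBE2C (-1.91), its ubiquitin-conjugating enzyme, CDC20 (-1.39), its mitotic activator, and the core subunit CDC27 (-1.17) had the largest differences. Of 13 genes tied to the breakdown of D and E cyclins, 2 lay at least 2-fold above the negative control and 1 below it, at a list median of -0.05. These counts are too small to set the list apart from the 8.21% and 5.79% of all kept genes. FBXW7, the receptor that recognises cyclin E for its ligase, stood at 9.56 with p53 and 7.84 in the negative control, 3.30-fold higher. SKP2, an F-box receptor best known for the breakdown of p27, was 2.55-fold lower, and USP28, a deubiquitinase that opposes FBXW7, lay just short of 2-fold lower. CRYAB, a small heat shock protein gene listed for its part in a cyclin D1 ligase, had a difference of 3.74, but its control value of 5.51 was below the filter level. On the mean of the 2 arrays it was not kept, which left FBXW7 as the 1 higher gene of the list.

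Transcription factors of the cyclin genes were mixed. Their counts stand beside 5.79% of all kept genes at least 2-fold lower and 8.21% higher. Of 10 E2F and DP genes, 2 lay at least 2-fold below the negative control and none above it, at a list median of -0.69. E2F8 (-1.33), a repressor E2F, was kept through the control array alone, as it stood at 7.23 with p53. E2F5 (-1.11) was at -0.96 with the intensity trend removed, and E2F1 (-0.98) and E2F6 (-0.80) followed. Of 10 genes of the pocket proteins, MuvB core, MYBL2 and FOXM1, 3 lay at least 2-fold below the negative control and none above it, at a list median of -0.05. MYBL2 (-1.53) and FOXM1 (-1.43), activators that bind the MuvB core in S and G2 phase, and the pocket protein gene RBL1 (-1.40) were the lower ones. RB1, the retinoblastoma gene, stood at 0.88, and at 1.01, past 2-fold, with the intensity trend removed. The NF-Y subunits, which bind CCAAT boxes, stood at -0.71 for NFYB, -0.48 for NFYA and -0.08 for NFYC. NFYB was kept through the control array alone, at 7.29 with p53.

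Of 16 genes of mitogenic and other signals that act on cyclin D, 3 lay at least 2-fold below the negative control and 4 above it, at a list median of -0.03. Among all kept genes, 5.79% were at least 2-fold lower and 8.21% higher. MYC (-1.65), ETS1 (-1.50) and LEF1 (-1.39), all transcription factor genes, were lower, LEF1 being kept through the control array alone (7.23 with p53). The transcription factor gene STAT3 (1.41) was higher. The other higher genes, named after their values were seen, were FOS (1.31), GSK3B (1.25), a kinase known to mark cyclin D1 for export and breakdown, and NFKB1 (1.19). Of 9 genes of cyclin G partners, MDM2 was 6.55-fold higher, at 13.59 with p53 and 10.87 in the negative control, and none was 2-fold lower. A single call does not set this list apart from the shares of all kept genes. PPP2R5A (-0.86) and PPP2CA (-0.34), subunits of protein phosphatase 2A, and GAK (0.81), the cyclin G-associated kinase, did not reach 2-fold. None of 3 FOXO genes passed 2-fold: FOXO1 stood at 0.16, FOXO3 was equal in both arrays and FOXO4 stood at -0.04.

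**Figure D4:**
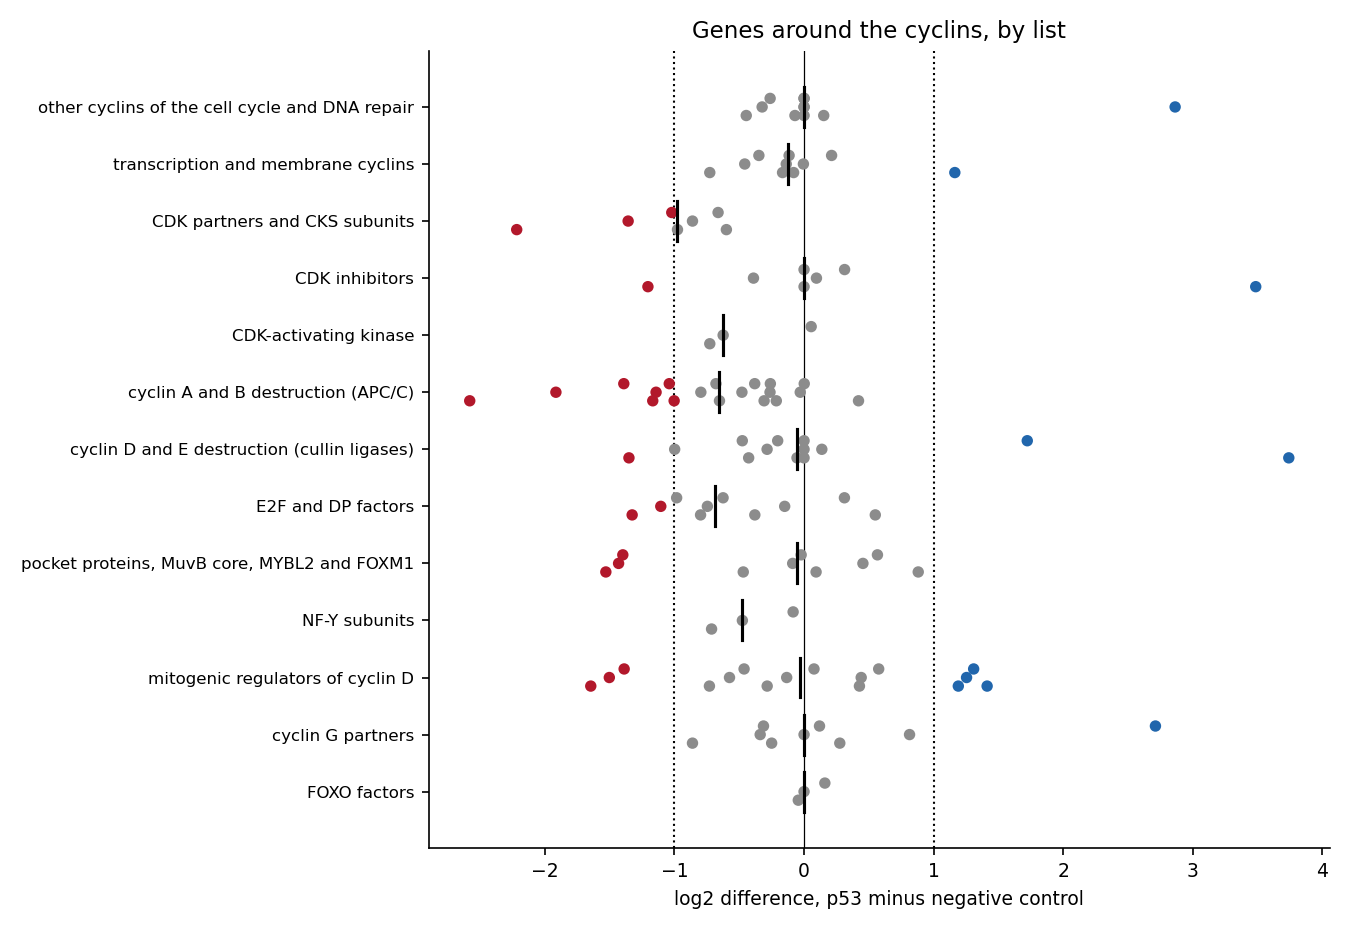
Log2 difference (p53 minus negative control) of each measured gene in 13 lists around the cyclins, 1 point per gene, with the median of the list as a black bar. Red points are at least 2-fold lower, blue points at least 2-fold higher, and grey points neither or not kept. The lists of CDK partners and of the anaphase-promoting complex with its regulators have their medians at -0.98 and -0.65. CCNA1 is the blue point at 2.86 in the top row.

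Markers of carcinoma cells and of other cells were read in both arrays. They do not tell which array had p53, and they do not single out H1299. KRT8, KRT18 and VIM, which carcinoma cells of this kind express, stood between 12.47 and 12.92 with p53 and between 12.52 and 13.07 in the negative control. KRT7 was only just above the filter level, at 7.72 with p53 and 7.80 in the negative control, and EPCAM and KRT19 were below it. None of 5 haematopoietic and 2 endothelial markers was above that level in either array, and of 3 fibroblast markers only COL1A1 was, with the same value of 8.14 in both.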

How the data were processed

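H1299 RNA, extracted with Trizol, was labelled with biotin and read on Affymetrix arrays, per the labels' protocols. The authors deposited log2 intensities, 1 per probe set and array, made with RMA, per the submitters' processing notes. The log2 scale was read from the values, whose medians were 7.38 in both arrays. Sorted values of the 2 arrays differed by at most 0.192, so a shift of total RNA cannot be read from them. Genes came from GEO's platform annotation, with symbols updated through RefSeq. The probe set with the highest mean stood for a gene with several, and a probe set without exactly 1 symbol was not used for genes. Named list genes were up to 4 kept genes per list with the largest absolute difference, beside CDKN1A and MDM2. With 2 arrays each gene has a single difference, so likeness of pattern was not measured and ranks are given. Members, lists and motifs were chosen with earlier results of these data known. The call rule was run on simulated data with planted shifts far beyond 2-fold. That run checks the code and does not bear on differences near the threshold. The number of arrays limits the precision. Some genes are not reported here, so list counts cover those measured. The work was done in Python 3.11.15 with statsmodels 0.14.6 for the lowess trend, numpy 2.4.6, pandas 2.3.3 and matplotlib 3.10.9.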

Additional observations from a re-analysis of the deposited data

How the results depend on the processing

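The same 5 cyclins, CCNA2, CCNB1, CCNB2, CCNE1 and CCNE2, were at least 2-fold lower with no filter, with the filter at the 75th percentile or on the mean of the arrays, and with centring, a removed intensity trend, the mean over probe sets, quantile normalization or an offset of 32. The median over the 10 cyclins ran from -1.07 to -0.96 over these scalings. Of the single cyclins, CCNE2 moved the most, from -2.67 to -2.45 with the offset of 32. Several of these settings could change little or nothing. Each cyclin has 1 probe set, so the mean over probe sets left every cyclin as it was. Removing the filter cannot remove a call, and centring used a median of only -0.007. Sorted values of the arrays differed by at most 0.192 before quantile normalization. Counts depended on the fold threshold. At 1.5-fold, 1 cyclin (CCNG1) was higher and CCND1 joined the lower ones. Of all kept genes, 1777 (15.5%) were then lower and 1642 (14.4%) higher. In the pathway lists together, 37 genes were lower, against 20 at 2-fold. At 3-fold, CCNE1 was no longer among the lower cyclins, and 175 of all genes were lower and 450 higher. In the lists, 4 genes were then lower and 5 higher, against 20 and 10 at 2-fold. These list counts show only the effect of the threshold and were not set against a share. Among list genes, E2F8, RBL1, LEF1 and FOS were not kept with the filter at the 75th percentile, and ANAPC1 (-1.002) fell short of 2-fold under centring, quantile normalization, a removed trend and the offset. No paired analysis was possible because each group has 1 array. Among 310 genes read by 2 unequal probe sets that both passed the filter, the paired differences lay 1 or more apart in 2, a check that the cyclins, with 1 probe set each, do not allow.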

Other observations

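Of the 31 cyclin and cyclin-related genes, 5 were listed at exactly equal values, 3 of them above the filter level, and none of the 10 A, B, D, E and G cyclins did. Over all probe sets, 35.9% were equal in both arrays. Equal values made up 62.7% of the 8325 dimmest probe sets and 5.18% of the 8324 brightest. Of the 21350 probe sets that were not equal, 497 differed by less than 0.01. The reason for the equal values was not tested.

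Among cyclin probe sets outside the gene lists, none differed by 2-fold. CCNYL2 stood at 8.28 with p53 and 7.69 in the negative control, a difference of 0.60. A probe set that reads both CCNQP3 and CCNQ had a difference of -0.48, against -0.17 for the probe set of CCNQ alone. The probe set shared by CCNB3, the third B cyclin, and BCOR was equal in both arrays at 6.50, below the filter level.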
